A study of Mus musculus with 28 samples.

Results

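The loci of 6 mouse genes that run blood stem and progenitor cells were read for 5-hydroxymethylcytosine (5hmC) and 5-methylcytosine (5mC): Runx1, Gata2, Meis1, Erg, Lmo2 and Myb. Each locus was taken as a fixed window of the mm9 build that carries the gene's name: chr16:92580000-92850000 for Runx1, chr6:88130000-88180000 for Gata2, chr11:18760000-18940000 for Meis1, chr16:95560000-95830000 for Erg, chr2:103780000-103840000 for Lmo2 and chr10:20830000-20900000 for Myb. A peak belonged to a locus where it overlapped the window, and 2250 of the 1489550 deposited peaks did. Peaks were assigned by position alone and no measured value, while the loci were chosen with earlier results of these data known. All libraries came from bone marrow of C57BL/6 mice aged 6 to 10 weeks, from a cell fraction labelled LK. The genotypes were DKO (combined loss of Tet1 and Tet2), Tet2KO (loss of Tet2) and wild type (WT). For 5hmC there were 2 libraries of each genotype, and for 5mC there were 2 of DKO, 1 of Tet2KO and 2 of WT. The labels do not say how the alleles were made or whether replicate libraries stem from different mice, so p-values reflect the spread of these libraries alone, which may be technical. The other 17 samples of the series, which are RNA-seq libraries, were not analysed here, so the cell type was not checked against marker genes.

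TET enzymes oxidise 5mC, the methyl mark placed mostly on the dinucleotide CG, to 5hmC, which in differentiated and progenitor cells is often found along gene bodies and at enhancers. Runx1, Gata2, Erg, Meis1 and Myb encode DNA-binding transcription factors of the stem and progenitor stage, and Lmo2 encodes an adaptor that joins GATA, SCL/TAL1 and LDB1 proteins in complexes on DNA. Runx1 is transcribed from a distal and a proximal promoter, and enhancers inside and around these genes are a classical subject of blood development.

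RefSeq promoters were available for 5 of the 6 loci, as 9 sequences that run from 250 bases before to 50 after a gene's start in the build GRCm38.p6. They are shown for the letters on which both marks can sit, with CG in capitals, a dinucleotide that reads the same on both strands. They were not placed on mm9, and no peak was assigned to them. Among all 32851 RefSeq promoters the median number of CG was 7, and 94.6% held at least 1. The pair of Runx1 promoters differed most within a gene, with 2 CG in one and 35 in the other. At least 35 CG were held by 6.95% of all promoters. The Myb promoter had 40, a number reached by 3.91% of promoters, the Gata2 promoter shown had 32, reached by 9.52%, and the Meis1 promoter had 15, reached by 34.6%. In the build GRCm38.p6 the CG-poor Runx1 promoter lies at chr16:92826025-92826324 on the minus strand, the CG-rich one at chr16:92697280-92697579 on the minus strand, that of Gata2 at chr6:88193641-88193940 on the plus strand, that of Myb at chr10:21160935-21161234 on the minus strand and that of Meis1 at chr11:19018920-19019219 on the minus strand.
Runx1 promoter with 2 CG: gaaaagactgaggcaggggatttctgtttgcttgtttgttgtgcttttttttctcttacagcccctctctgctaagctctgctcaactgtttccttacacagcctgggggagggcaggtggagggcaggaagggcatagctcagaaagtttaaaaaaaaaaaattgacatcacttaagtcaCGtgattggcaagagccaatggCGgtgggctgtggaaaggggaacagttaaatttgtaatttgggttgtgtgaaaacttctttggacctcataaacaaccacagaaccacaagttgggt
Runx1 promoter with 35 CG: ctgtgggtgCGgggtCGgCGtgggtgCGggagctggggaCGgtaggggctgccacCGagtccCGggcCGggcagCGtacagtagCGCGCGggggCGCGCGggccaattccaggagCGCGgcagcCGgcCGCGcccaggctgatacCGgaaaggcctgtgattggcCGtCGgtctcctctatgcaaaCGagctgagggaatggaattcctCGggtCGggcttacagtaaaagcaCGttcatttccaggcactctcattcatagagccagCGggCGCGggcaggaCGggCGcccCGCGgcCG
Gata2 promoter: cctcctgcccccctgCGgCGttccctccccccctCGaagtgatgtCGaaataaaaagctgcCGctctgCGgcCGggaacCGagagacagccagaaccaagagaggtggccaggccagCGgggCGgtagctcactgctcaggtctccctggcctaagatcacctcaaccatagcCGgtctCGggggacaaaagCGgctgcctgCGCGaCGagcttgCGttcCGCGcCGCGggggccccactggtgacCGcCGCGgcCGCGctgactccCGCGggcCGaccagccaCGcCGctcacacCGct
Myb promoter: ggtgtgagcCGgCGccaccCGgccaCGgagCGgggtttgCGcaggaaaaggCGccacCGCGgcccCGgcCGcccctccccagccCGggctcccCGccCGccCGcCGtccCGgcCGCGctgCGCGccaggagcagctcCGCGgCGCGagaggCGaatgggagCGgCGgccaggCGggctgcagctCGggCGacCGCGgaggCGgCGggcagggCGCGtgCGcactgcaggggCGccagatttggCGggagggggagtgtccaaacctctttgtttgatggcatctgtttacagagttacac
Meis1 promoter: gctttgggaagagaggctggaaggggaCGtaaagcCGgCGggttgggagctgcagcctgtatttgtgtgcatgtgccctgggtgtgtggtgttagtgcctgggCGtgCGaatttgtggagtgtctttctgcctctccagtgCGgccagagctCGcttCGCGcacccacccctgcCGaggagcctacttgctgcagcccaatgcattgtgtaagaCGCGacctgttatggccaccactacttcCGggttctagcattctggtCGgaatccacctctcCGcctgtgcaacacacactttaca

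Both assays enrich modified DNA before sequencing. The hMe-Seal method tags 5hmC chemically for capture, and MeDIP pulls down 5mC with an antibody. A peak therefore marks a stretch of enrichment and gives no percentage of modified cytosines. The lists held 128471 to 143960 peaks of 5hmC and 120243 to 147934 of 5mC per library. Read depth is not given in the sources used here. Genome-wide, 5hmC peaks covered 110.0 and 105.8 Mb in DKO, 101.5 and 98.5 Mb in Tet2KO, and 111.7 and 109.1 Mb in WT. The mean of Tet2KO differed from that of WT by -9.40%, and that of DKO by -2.23%, and these differences touch each window value given here.

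The loci ranged from 100 kb bins among those most covered by 5hmC peaks to bins below the median. The bins tested were those in which 2 or more libraries of an assay had a peak. Averaged over 6 libraries, the 100 kb bin that starts at 92700001 on chromosome 16, inside the Runx1 window, was 73.3% covered by 5hmC peaks, and only 2 of the 13476 bins tested were covered more. The neighbouring Runx1 bin from 92600001 had 61.8%, with 10 bins above it. The median tested bin had 4.40%. The best covered bin of the other loci had 35.3% at Erg, 32.9% at Lmo2, 29.96% at Myb, 26.5% at Gata2 and 15.8% at Meis1. At the low end, the Meis1 bin from 18900001 had 1.40%, and 73.3% of the tested bins had more. 5mC followed another order: the Runx1 bin from 92600001 had 10.01%, with 387 of 20403 bins above it, the Gata2 bin had 7.89%, and the median tested bin had 1.24%.

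**Figure D1:**
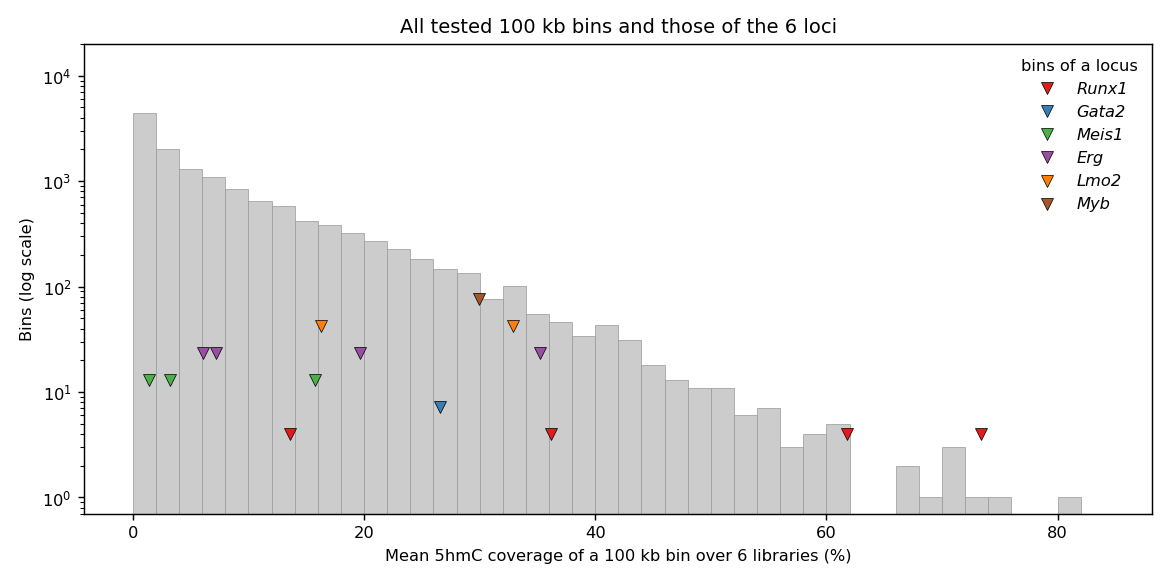
Number of tested 100 kb bins (log scale) by mean 5hmC peak coverage over 6 libraries in percent, with triangles at the values of the bins that overlap each locus (their height separates the loci and carries no value). A pair of Runx1 bins, at 61.8% and 73.3%, lies far to the right of the median tested bin at 4.40%, while the bins of Meis1 and Erg spread from 1.40% to 35.3%.

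The loci differed in how many of their 5hmC regions were shared by all libraries. Peaks of all 6 libraries that overlapped by at least 1 bp were merged into 286 regions in the windows. All 6 libraries had a peak in 141 of them (49.3%), against 29.9% of the 206417 regions of the genome. The share was 75.8% at Runx1 (69 of 91), 54.5% at Lmo2 (12 of 22), 41.3% at Erg (31 of 75), 40.0% at Myb (12 of 30), 35.3% at Gata2 (6 of 17) and 21.6% at Meis1 (11 of 51). For 5mC, 62 of 173 regions in the windows (35.8%) were in all 5 libraries, against 32.3% of all 218122.

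Separation of 2 libraries from 2 others is common in these lists, which sets the scale for each locus. Both Tet2KO libraries lay below both WT libraries in 26.5% of the tested 100 kb bins and above them in 13.7%. DKO lay below WT in this sense in 20.9% and above in 20.5%, and below Tet2KO in 11.2% and above in 24.5%.

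**Figure D2:**
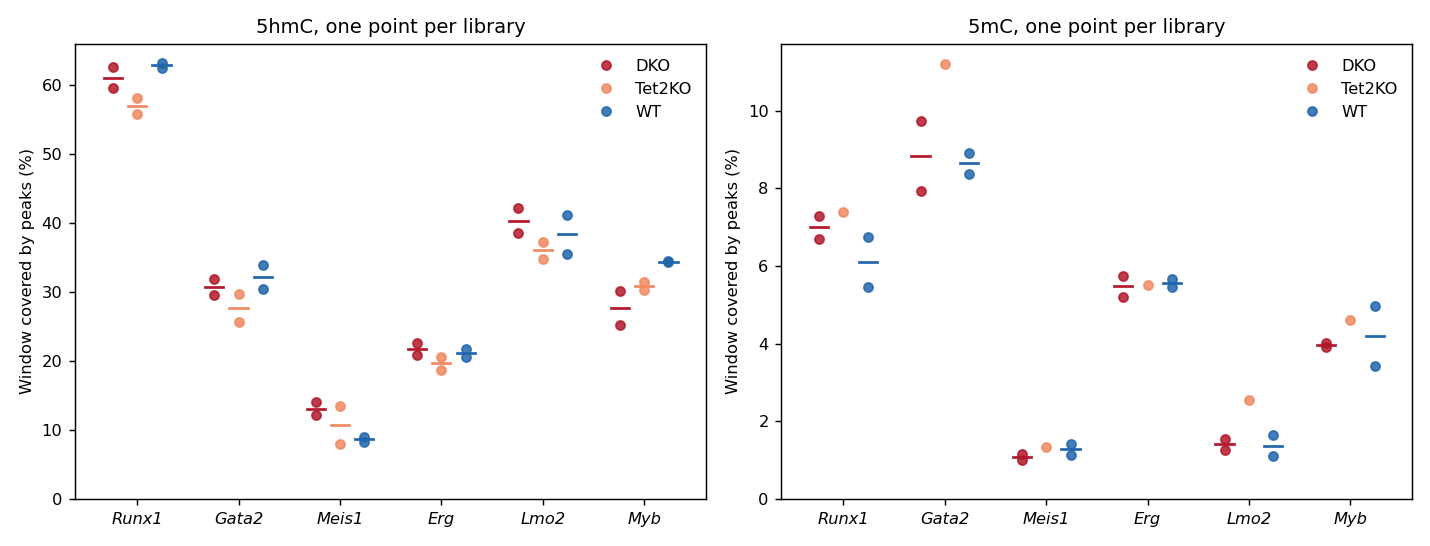
Percentage of each window covered by 5hmC peaks (left panel) and 5mC peaks (right panel), 1 point per library and a bar at the mean of each group of 2, for DKO, Tet2KO and WT from left to right. For 5hmC the loci lie between 7.89% and 63.2%, with Runx1 highest and Meis1 lowest in every library, and for 5mC between 1.01% and 11.2%.

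Runx1, a factor without which definitive blood stem cells do not form, had 5hmC over more than any other window, and Tet2KO had less than WT. Peaks covered 62.6% and 59.6% of the window in DKO, 58.2% and 55.8% in Tet2KO, and 62.5% and 63.2% in WT. Both Tet2KO libraries were below both WT libraries and below both DKO libraries, while DKO and WT overlapped. The mean differed by -5.88 percentage points between Tet2KO and WT, a relative difference of -9.35% beside -9.40% genome-wide, and by 4.12 points between DKO and Tet2KO. The exact two-sided permutation test of both knockouts against WT gave p = 0.267 in this window, where 15 splits allow no p below 0.0667. The widest region in all 6 libraries was 9186 bp long, at chr16:92638404-92647589. Its peaks covered 9148 and 7811 bp in DKO, 7450 and 6524 bp in Tet2KO, and 8365 and 8405 bp in WT. Its scores were the highest of the window in DKO replicate 1 (1703) and WT replicate 2 (1395). In the other 4 libraries the highest score was at chr16:92815103-92821810, with 1633 and 2108 in DKO, 2068 and 2410 in Tet2KO, and 1965 and 739.5 in WT. Scores rank peaks within a list only. That region ranked between 23 and 113 in 5 of the lists and at 1068 in WT replicate 2, and all 5 libraries of 5mC had a peak in it. The longest stretch without a peak of either mark in any library was only 3681 bp, at chr16:92836946-92840626.

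Gata2, a zinc-finger factor that keeps stem cells in being, showed lower 5hmC in Tet2KO. Coverage was 29.6% and 31.9% in DKO, 25.6% and 29.7% in Tet2KO, and 34.0% and 30.5% in WT. The Tet2KO libraries lay below those of WT with a narrow gap, and DKO overlapped both. The difference between Tet2KO and WT was -4.54 points for all peaks and -1.23 points for peaks with a score of at least 100. The strongest 5hmC region and the strongest 5mC region of this window were in the same place. 5hmC lay at chr6:88139736-88141438, ranked between 160 and 965 in the 6 lists, and the 5mC region at chr6:88139943-88141383 was wholly inside it. Scores of that 5mC region were 1289 and 1508 in DKO, 1973 in the lone library of Tet2KO, and 1315 and 1217 in WT. The widest 5hmC region found in every library spanned 4888 bp at chr6:88153389-88158276, and 817 bp of it lay on 5mC found in every library. Between these marked stretches and the end of the window, chr6:88160264-88170134 (9871 bp) had no peak of either mark.

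Erg, an ETS factor of stem cells and endothelium, had an uneven window. 5hmC covered 22.6% and 20.8% in DKO, 18.8% and 20.6% in Tet2KO, and 21.8% and 20.6% in WT. DKO lay above Tet2KO without overlap, by 2.04 points in the mean, with a narrow gap of 20.8% against 20.6% between the nearest libraries. Neither genotype was separate from WT. Coverage was concentrated at the low-coordinate side: the 100 kb bin from 95600001 averaged 35.3%, those from 95700001 and 95800001 had 6.06% and 7.19%. Most of the bin from 95800001 lies beyond the window. 5mC was even across these bins, at 4.16%, 4.29% and 5.72%. The widest region in all 6 libraries, chr16:95645724-95652534 (6811 bp), was covered over 6289 and 5862 bp in DKO, 3921 and 5871 bp in Tet2KO, and 4916 and 4634 bp in WT. The highest 5hmC score of the window was 902.5, in Tet2KO replicate 1 at chr16:95569946-95572311, a region with 205 to 552.6 in the other 5 libraries. The strongest 5mC region, chr16:95603218-95603831, had 5hmC peaks in 1 of 6 libraries. No peak of either mark was found over 10487 bp, at chr16:95744177-95754663.

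Myb, a proto-oncogene product needed for definitive blood formation, had the window in which both knockouts lay below WT in 5hmC. Peaks covered 30.2% and 25.3% of the window in DKO, 31.4% and 30.4% in Tet2KO, and 34.4% and 34.5% in WT. The 4 knockout libraries were all below both WT libraries, and how often this occurs over the genome is not given here. DKO was also below Tet2KO, with a narrow gap of 30.2% against 30.4% between the nearest libraries. Mean differences were -6.68 points (-19.4%) for DKO and -3.52 points (-10.2%) for Tet2KO against WT. Genome-wide the relative differences were -2.23% for DKO and -9.40% for Tet2KO. In the 100 kb bin of Myb, Tet2KO had 31.8% and 28.6% and WT 31.3% and 32.7%, so these overlapped. DKO stayed below WT in that bin. In the window, both knockouts together averaged 29.3 ± 2.75% and WT 34.4 ± 0.0505% (SD, n = 4 and 2). The exact two-sided permutation test gave p = 0.0667, the smallest that 15 splits can give. That test was run in each window, and Myb had the lowest p of them, without adjustment for their number. The exact permutation p was 0.333 at Gata2 and 0.733 at Erg, and higher at Lmo2. In windows wider by 50 kb at each end the differences were -2.17 points for DKO and -1.80 points for Tet2KO, and DKO against Tet2KO was -0.369 points, against -3.17 points in the original window. The strongest 5hmC region, chr10:20864062-20866459, was called in all 6 libraries with scores of 1007 and 1114 in DKO, 1609 and 1205 in Tet2KO, and 1145 and 840.0 in WT. Next to it, a region of 1055 bp at chr10:20862802-20863856 was called in every Tet2KO and WT library and in neither DKO library. Whether its absence from the DKO lists reflects where peaks end was not tested. The widest region present in all 6, chr10:20845753-20848599 (2847 bp), also held the strongest 5mC region of the window, chr10:20847384-20847867, which was called in all 5 libraries of 5mC. The longest peak-free stretch, 7669 bp, lay at the window's low-coordinate edge.

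Meis1, a homeobox partner of HOX proteins that sustains stem cells, had the least 5hmC of the 6 loci. Coverage was 12.1% and 14.0% in DKO, 7.89% and 13.5% in Tet2KO, and 9.04% and 8.28% in WT. DKO was above WT without overlap, by 4.41 points, a relative difference of 50.9%. The Tet2KO libraries fell on both sides of WT. By score, the median Meis1 peak stood low in its list, at percentile 49.2 in DKO, 29.95 in Tet2KO and 41.6 in WT (means over libraries). At Runx1 these percentiles were 84.6, 85.5 and 86.4. Peak numbers were 28 and 39 in DKO, 25 and 39 in Tet2KO, and 24 and 20 in WT, so both knockouts had more peaks than WT. Genome-wide, the lists held 130077 and 143960 peaks in DKO, 137013 and 140491 in Tet2KO, and 128471 and 135265 in WT. Both Tet2KO lists were thus also longer than both WT lists, while DKO overlapped WT. The exact permutation p of coverage in both knockouts against WT was 0.333. Much of the gap between DKO and WT lay in the bin from 18800001, with 18.2% and 21.0% in DKO and 14.9% and 10.5% in WT. In windows wider by 50 kb at each end the difference was 2.74 points. The widest region found in all 6 libraries, chr11:18822284-18824734 (2451 bp), was covered over 1842 and 2109 bp in DKO, 1009 and 914 bp in Tet2KO, and 767 and 770 bp in WT. The strongest region, chr11:18829940-18831587, ranked between 3542 and 11785 in the lists, with scores of 304.8 and 351.6 in DKO, 358.9 and 527.0 in Tet2KO, and 290.4 and 329.8 in WT. A stretch of 26865 bp at chr11:18908125-18934989 had no peak of either mark and was the longest such stretch at the 6 loci.

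Lmo2, the LIM-domain adaptor, had the second highest 5hmC coverage of the 6 windows. It was 42.2% and 38.6% in DKO, 34.7% and 37.3% in Tet2KO, and 41.2% and 35.6% in WT. DKO was above Tet2KO by 4.32 points without overlap, and WT overlapped both. The 100 kb bin from 103700001, most of which lies before the window, had 36.6% and 34.6% in DKO, 26.4% and 29.8% in Tet2KO, and 35.7% and 34.1% in WT. The highest 5hmC score in any list was at chr2:103806035-103808013, with scores of 448.3 and 528.5 in DKO, 604.2 and 517.0 in Tet2KO, and 573.8 and 626.2 in WT. In both DKO libraries other regions of the window scored higher, with 511.6 and 622.9. No library had a 5mC peak in that region. The widest constant region, chr2:103814670-103818112 (3443 bp), was also free of 5mC found in every library. 5mC was sparse, with at most 6 peaks of a library in the window. A gap of 8131 bp at chr2:103824588-103832718 held no peak of either mark.

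**Figure D3:**
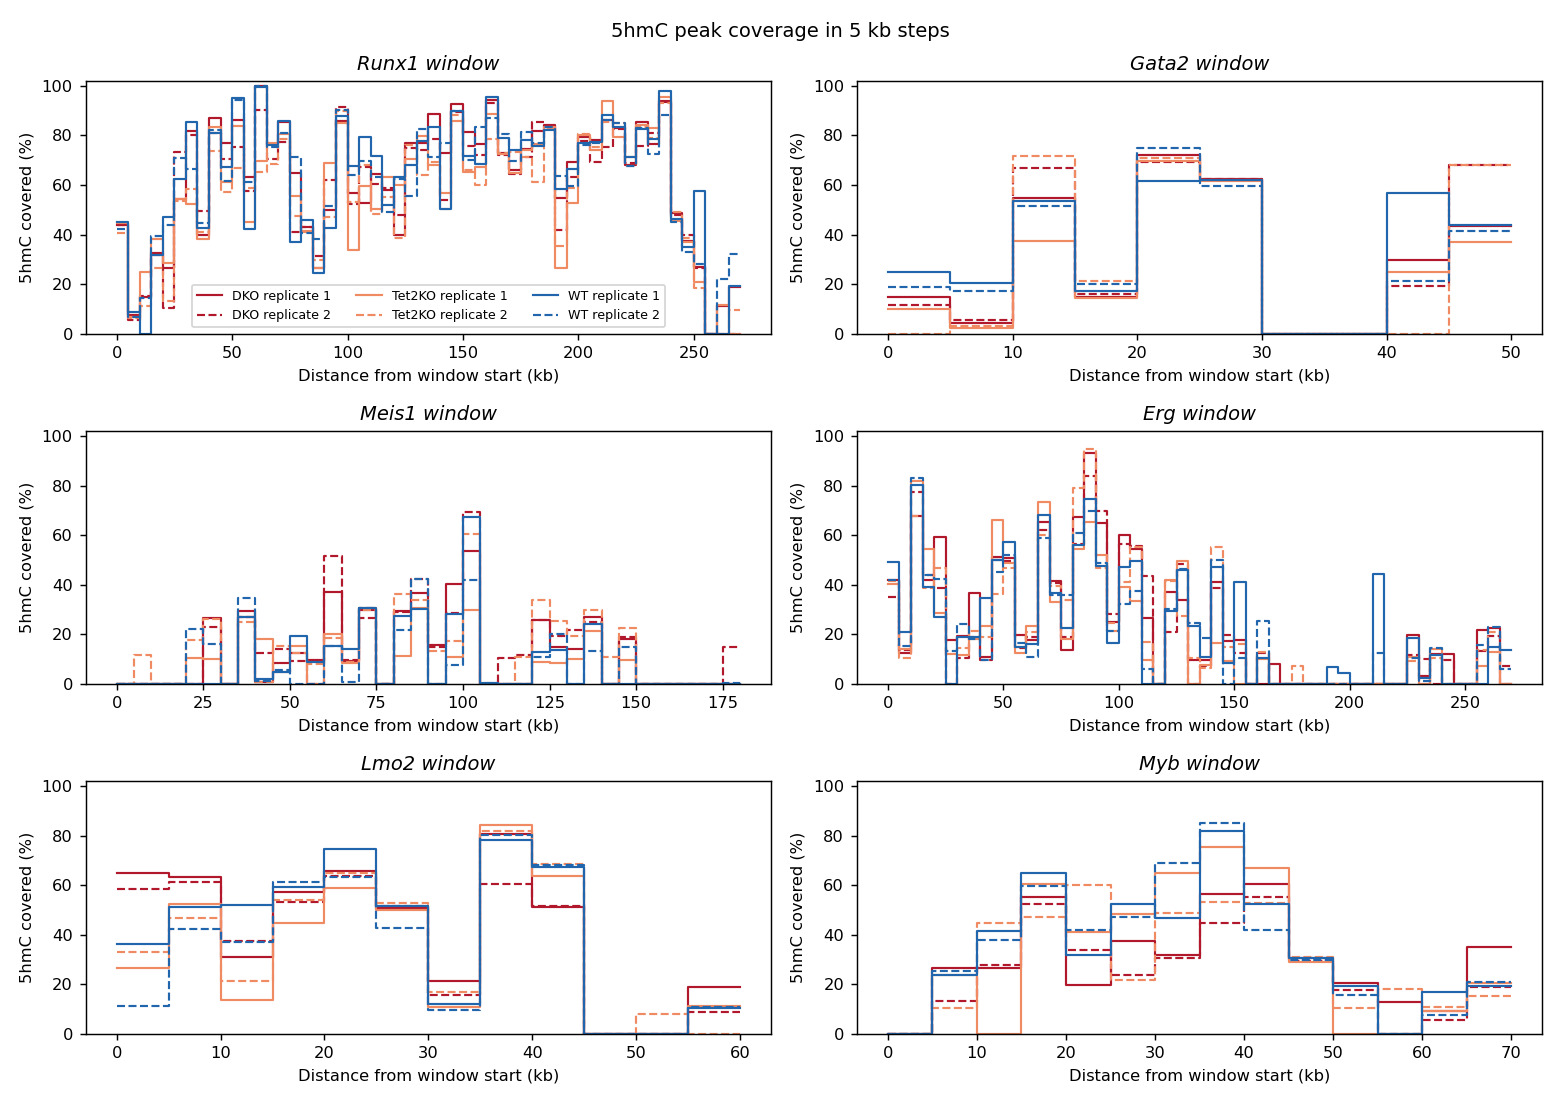
5hmC peak coverage in percent along each window in steps of 5 kb, against the distance from the window start in kb, 1 line per library (solid for replicate 1, broken for replicate 2). The Runx1 lines stay high over most of 270 kb, and those of Erg and Meis1 alternate with long empty stretches. At Myb the DKO lines lie below the WT lines in most steps in the middle of the window. In the Myb step from 20870000 the DKO lines lie above, with 60.7% and 55.3% against 52.3% and 41.8% in WT.

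Coverage was next compared between genotypes in a fit over the tested 100 kb bins, of which 15 overlapped the windows, some reaching beyond them. For Tet2KO against WT, none of these passed (limma, lowest adjusted p = 0.299), nor did any other tested bin (0% called, lowest adjusted p = 0.197). Without adjustment, 4 of the 15 bins passed the threshold of 0.05 in limma, against 12.9% of the tested bins, and the 4 had less 5hmC in Tet2KO. They were the bins of Gata2 (21.7% and 22.7% in Tet2KO, 33.5% and 28.7% in WT; limma, unadjusted p = 0.00632), Runx1 from 92600001 (57.97% and 55.7% in Tet2KO, 64.7% and 65.98% in WT; limma, unadjusted p = 0.00860), Erg from 95800001 (5.42% and 5.38% in Tet2KO, 10.04% and 7.77% in WT; limma, unadjusted p = 0.0141) and Lmo2 from 103700001 (limma, unadjusted p = 0.0143). Both Tet2KO libraries lay below both WT libraries in 6 of the 15 bins and above them in 0. Over the tested bins 26.5% were lower in this sense and 13.7% higher. Among the windows themselves, Runx1, Gata2 and Myb were lower. Over all 6 windows coverage was 30.9% and 32.1% in Tet2KO against 34.4% and 33.5% in WT, a difference of -2.48 points or -7.31%, beside -9.40% for the whole genome.

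For DKO against WT the loci went in both directions, and the total was level. Over all 6 windows, 34.8% and 33.3% were covered in DKO, against 34.4% and 33.5% in WT, a difference of 0.0522 points. No bin was called in limma (0% of the tested bins, lowest adjusted p at the loci 0.594). Without adjustment, 1 of the 15 bins passed the threshold of 0.05 in limma, that of Meis1 from 18800001 (unadjusted p = 0.0417, adjusted p = 0.594), against 8.24% of the tested bins. DKO was higher without overlap in 3 bins and lower in 5, against 20.5% and 20.9% of the tested bins. The Myb bin had 28.2% and 27.3% in DKO and 31.3% and 32.7% in WT (limma, unadjusted p = 0.0652, adjusted p = 0.632).

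DKO against Tet2KO compares cells that lack both genes with cells that lack Tet2 alone. Over all windows, 34.8% and 33.3% were covered in DKO, against 30.9% and 32.1% in Tet2KO, a difference of 2.54 points or 8.06%, beside 7.92% for the genome. DKO was higher without overlap at Runx1, Erg and Lmo2 and lower at Myb, with narrow gaps at Erg and Myb. Of the 15 bins, 8 were higher without overlap and 1 was lower, against 24.5% and 11.2% of the tested bins. None was called in limma (0% of the tested bins, lowest adjusted p at the loci 0.533). Without adjustment, 2 bins passed the threshold of 0.05 in limma, against 8.45% of the tested bins, both higher in DKO: Lmo2 from 103700001 (unadjusted p = 0.00953) and Runx1 from 92600001, with 64.0% and 62.2% in DKO and 57.97% and 55.7% in Tet2KO (unadjusted p = 0.0327). The 3 comparisons share libraries, so their values are not independent of each other.

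Few single regions differed between genotypes in both libraries. Lost means that the genotype named second had a peak in both of its libraries and the genotype named first had none, and gained means the opposite. In Tet2KO against WT, 11 of the 286 regions were lost and 7 gained (3.85% and 2.45%), against 3.27% and 3.42% of all regions. DKO against WT gave 8 lost and 11 gained (2.80% and 3.85%), against 3.30% and 4.18%. For DKO against Tet2KO, 5 were lost and 4 gained (1.75% and 1.40%), against 2.21% and 2.81%. These shares are near those of the genome. The counts rest on both libraries: with any 1 library left out, presence in 1 library suffices on its side, and there were 18 to 24 lost and 13 to 30 gained for Tet2KO against WT, 12 to 22 lost and 19 to 28 gained for DKO against WT, and 8 to 22 lost and 8 to 25 gained for DKO against Tet2KO.

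At Runx1, Gata2 and Erg, 5 regions had a peak in both WT libraries and in none of the 4 knockout libraries (1.75% of regions, against 1.33% in the genome). They were chr16:92703370-92704495 (1126 bp) and chr16:92603658-92604747 (1090 bp) at Runx1, chr6:88135613-88136420 (808 bp) at Gata2, and chr16:95770673-95772462 (1790 bp) and chr16:95829695-95830545 (851 bp) at Erg. None of the 5 touched a 5mC peak of any library, which also held for most 5hmC regions of the windows lost or gained in any comparison. Genome-wide, 42.9% of the 5hmC regions found in all 6 libraries touched 5mC of any library. No lost or gained region was found in all 6, so this share is not a background for them. Width differed too: genome-wide the median region in all 6 libraries spanned 1182 bp, and the median of all 5hmC regions was 721 bp. Whether lost or gained regions touch 5mC less often than other regions of like width was not tested. The reverse, a peak in all 4 knockout libraries and in neither WT library, was found once, at Lmo2 in chr2:103784238-103785134 (897 bp), which is 0.350% of regions against 1.30% in the genome. Runx1 and Lmo2 each had a region absent only from Tet2KO, chr16:92775333-92775993 (661 bp) and chr2:103783116-103783834 (719 bp), with peaks in both DKO and both WT libraries. At Lmo2, chr2:103822049-103822576 (528 bp) was absent only from DKO, as was the Myb region next to the strongest peak. This Lmo2 region lies less than 200 bp after chr2:103818785-103821929, which had a peak in every library. Whether its loss reflects where peaks end was not tested.

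Further regions of Tet2KO and WT differed while DKO was split. At Gata2, chr6:88131006-88131735 (730 bp) and chr6:88173259-88173813 (555 bp) were lost in Tet2KO and called in 1 of the DKO libraries each, and the same held for chr16:92714870-92715517 (648 bp) at Runx1 and chr2:103839022-103839560 (539 bp) at Lmo2. Gains in Tet2KO were at Meis1 in chr11:18889779-18890616 (838 bp), chr11:18860340-18860933 (594 bp) and chr11:18843527-18843946 (420 bp), at Erg in chr16:95681686-95682415 (730 bp) and chr16:95604746-95605237 (492 bp), and at Runx1 in chr16:92814638-92815091 (454 bp). The Meis1 region of 420 bp and the Erg region of 492 bp had a peak in no DKO library. The Runx1 region of 454 bp lies less than 200 bp before chr16:92815103-92821810, which had a peak in every library. Whether its gain reflects where peaks end was not tested.

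Gained regions of DKO lay at Meis1, Erg and Lmo2. Meis1 had 4 and no lost region: chr11:18849896-18850773 (878 bp), chr11:18882948-18883812 (865 bp) and chr11:18892631-18893399 (769 bp) were the widest. All 4 were also called in Tet2KO replicate 2 and in no other Tet2KO library. Erg had 4 gained regions, of which chr16:95672483-95674276 (1794 bp) and chr16:95633773-95634980 (1208 bp) were also in Tet2KO replicate 2 and chr16:95654082-95654936 (855 bp) in Tet2KO replicate 1. It also had a lost region called in Tet2KO replicate 2, chr16:95636800-95637447 (648 bp). Beside the region gained in both knockouts, Lmo2 gained chr2:103838016-103838615 (600 bp) and chr2:103786267-103786820 (554 bp).

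Only DKO had a called 5hmC peak at the 554 bp Lmo2 region and at chr16:95801886-95802493 (608 bp) of Erg. Both DKO libraries and no Tet2KO or WT library had one. A peak that was not called does not show that 5hmC was absent. The Lmo2 region lies less than 200 bp before chr2:103786945-103789618, which had a peak in every library. Whether this gain reflects where peaks end was not tested. Meis1 lost chr11:18780688-18781303 (616 bp) in DKO against Tet2KO, a region with a peak in WT replicate 2.

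**Figure D4:**
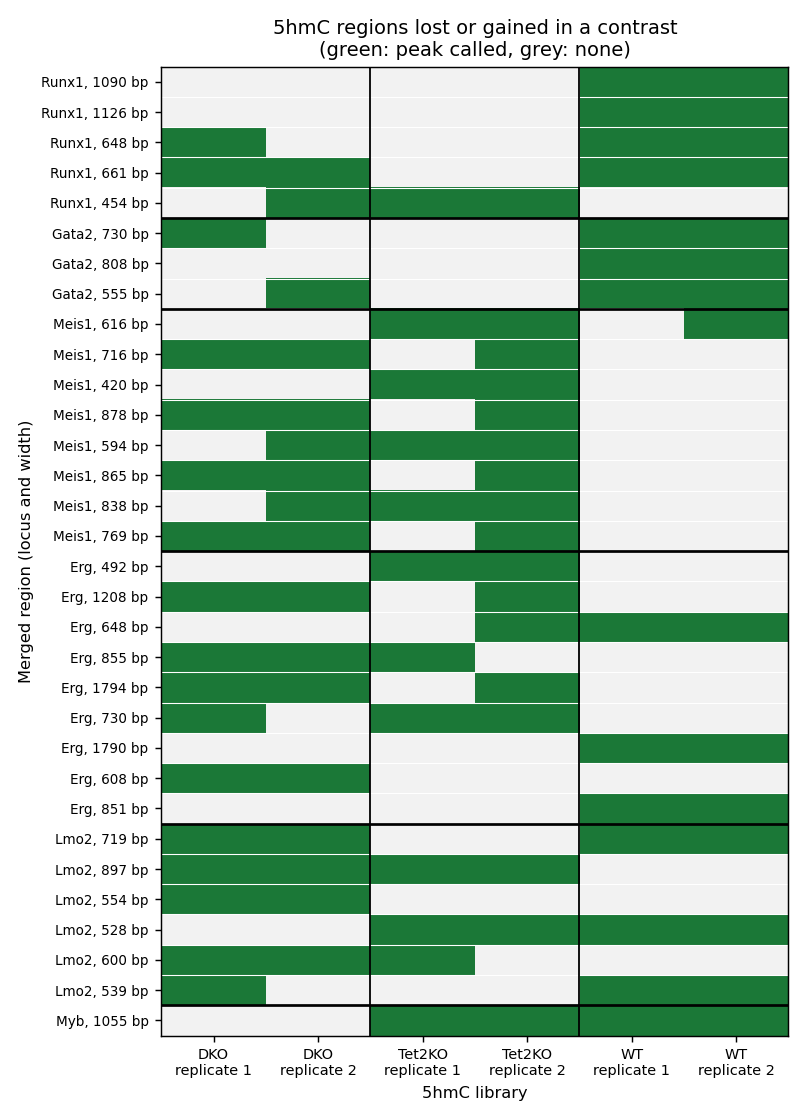
Presence (green) or absence (grey) of a 5hmC peak in each library, 1 line for each of the 32 merged regions lost or gained in any comparison, labelled by locus and width in bp, with DKO, Tet2KO and WT libraries from left to right. Lines with green in WT only number 5, at Runx1, Gata2 and Erg, and a single Lmo2 line is green in all 4 knockout libraries and grey in WT.

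5mC at the loci differed little between DKO and WT. Over all windows it covered 4.998% and 4.71% in DKO, 5.29% in the lone library of Tet2KO, and 4.52% and 4.79% in WT. At Runx1 the values were 7.28% and 6.71% in DKO, 7.39% in Tet2KO, and 5.45% and 6.75% in WT. Gata2 had the highest shares, with 7.93% and 9.73% in DKO, 11.2% in Tet2KO, and 8.92% and 8.37% in WT. Erg had 5.75% and 5.21% in DKO, 5.52% in Tet2KO, and 5.47% and 5.67% in WT, and Myb had 4.01% and 3.91% in DKO, 4.62% in Tet2KO, and 4.97% and 3.41% in WT. Lmo2 and Meis1 had the least. Lmo2 showed 1.55% and 1.26% in DKO, 2.54% in Tet2KO, and 1.10% and 1.64% in WT, and Meis1 showed 1.17% and 1.01% in DKO, 1.33% in Tet2KO, and 1.42% and 1.14% in WT. DKO and WT overlapped in all 6 windows. None of the 15 bins was called in limma (0% of the tested bins, lowest adjusted p = 0.943), and 0 passed the threshold of 0.05 without adjustment, against 4.61% of the tested bins. DKO was higher without overlap in 1 bin and lower in 0, against 14.4% and 16.7%.

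The strongest 5mC region was the same in all 5 libraries at Runx1, Gata2, Erg and Myb. At Runx1 it was chr16:92605530-92606619 (1090 bp), with a score of 3100 in all 5 libraries and a rank of 9 to 22. Between 114 and 179 peaks of each 5mC list tied at that score, so the equal scores do not show equal strength. It lay inside 5hmC found in all 6 libraries. At Myb, chr10:20847384-20847867 had scores of 697.2 and 501.8 in DKO, 703.2 in Tet2KO, and 468.5 and 556.2 in WT. At Erg, chr16:95603218-95603831 had 875.8 and 527.3 in DKO, 776.7 in Tet2KO, and 692.0 and 842.0 in WT. The highest 5mC scores in any list were 334.4 at Meis1 (chr11:18934990-18935418) and 195.5 at Lmo2 (chr2:103804832-103805209), and in DKO replicate 2 other regions of these windows scored higher, with 119.6 and 132.4. The widest 5mC regions found in all 5 libraries were 1438 bp at Runx1 (chr16:92655185-92656622), 1441 bp at Gata2, 852 bp at Erg (chr16:95579365-95580216), 672 bp at Lmo2 (chr2:103820803-103821474), 592 bp at Myb (chr10:20896827-20897418) and 437 bp at Meis1 (chr11:18790629-18791065).

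Of the 173 regions of 5mC, 2 were lost and 9 gained in DKO against WT (1.16% and 5.20%), against 2.37% and 2.53% of all regions. With any 1 library left out, 8 to 17 were lost and 10 to 23 gained, and with a minimum score of 100, 1 was lost and 2 gained. Both losses were at Erg, in chr16:95698761-95699285 (525 bp) and chr16:95564199-95564459 (261 bp), and the Tet2KO library had a peak in each. Runx1 gained 4: chr16:92830601-92831258 (658 bp), chr16:92622216-92622685 (470 bp) and chr16:92727970-92728333 (364 bp) were also called in the Tet2KO library and lay wholly on 5hmC found in all 6 libraries. The fourth, chr16:92668863-92669166 (304 bp), was in DKO only and away from 5hmC. Myb gained chr10:20864697-20865026 (330 bp), inside its strongest 5hmC region, and chr10:20888854-20889149 (296 bp), and the Tet2KO library had both. Erg gained chr16:95588867-95589213 (347 bp), chr16:95566317-95566626 (310 bp) and chr16:95714964-95715233 (270 bp).

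**Figure D5:**
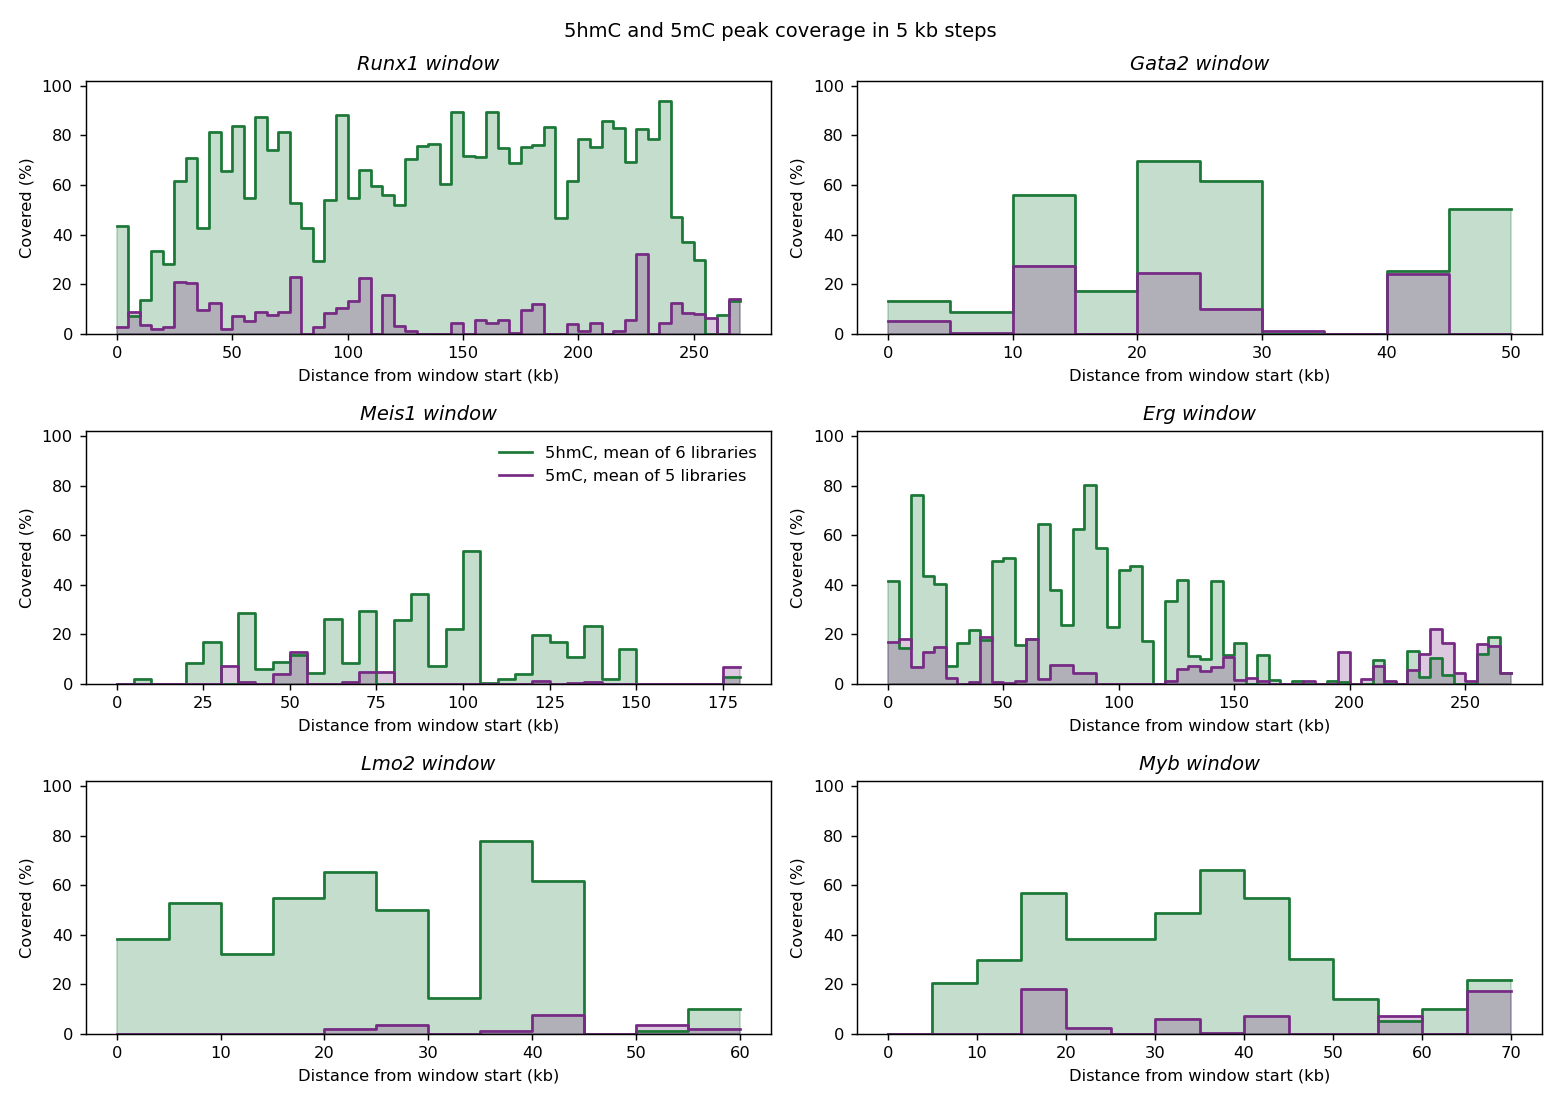
Peak coverage in percent along each window in steps of 5 kb for 5hmC (green, mean of 6 libraries) and 5mC (purple, mean of 5 libraries), against the distance from the window start in kb. 5hmC coverage exceeds that of 5mC over most of the Runx1, Lmo2 and Myb windows. At the far end of the Erg window, where 5hmC averaged 6.06% and 7.19% per bin, the marks are of like height. Most of the bin with 7.19% lies beyond the window. The marks come from separate enrichments and peak lists, with median peak widths of 598 to 728 bp for 5hmC and 275 to 331 bp for 5mC. Their heights are therefore not on 1 scale.

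The overlap of the marks was counted from both sides. Of the 286 regions of 5hmC, 41 (14.3%) overlapped 5mC found in all 5 libraries, against 12.8% of all 5hmC regions. Of the 141 with 5hmC in all 6 libraries it was 33 (23.4%), against 19.9% of all such regions. Asked from the other side, 34 of the 62 regions with 5mC in all 5 libraries (54.8%) overlapped 5hmC found in all 6, against 19.7% of all such 5mC regions. Runx1 had 20 of 23, and its window was itself covered by 5hmC over 55.8% to 63.2%. Myb had 3 of 4, Lmo2 had 2 of 2, Gata2 had 2 of 5, Erg had 6 of 23 and Meis1 had 1 of 5.

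How much of the 5mC length lay inside 5hmC was taken for libraries of the same genotype and number, which are not said to come from the same sample. At Gata2 it was 66.5% and 66.2% in DKO and 67.9% and 67.4% in WT, where 5hmC covered 29.6% to 34.0% of the window. Runx1 had 70.7% and 75.1% in DKO and 77.3% and 78.0% in WT, and Myb 67.8% and 59.2% in DKO and 74.6% and 56.8% in WT. At Erg the shares were 25.1% and 23.5% in DKO and 26.6% and 32.7% in WT, where 5hmC covered 20.6% to 22.6% of the window. Meis1 had 8.34% and 25.6% in DKO and 34.6% and 21.4% in WT, and Lmo2 78.1% and 70.1% in DKO and 100% and 51.6% in WT, with 2 to 9 peaks of 5mC per library at these loci. Each of these comparisons holds 2 against 2 libraries, for which no exact p is below 0.333, and no test was run.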

How the data were processed

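The members, lists and comparisons were chosen with earlier results of these data known. The authors deposited 1 peak list per library, without pooling, with a position and a score for each peak. The lowest score was 50, which in the form MACS writes (-10 times the log10 of p) stands for a p of 1e-05. Per the submitters' processing notes, MACS 1.4.2, Bowtie 0.12.9 and the build mm9 were used, among other tools. The sources used here give neither control libraries nor depth, so depth is unknown, and it can change the number and width of peaks. No gene annotation of mm9 was used, so exons, introns and promoters were not placed, and the Tet1 and Tet2 deletions were not looked for as a check of the labels.

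Covered length, merged regions (overlap of at least 1 bp), and lost and gained regions were computed with Python 3.11.15 and pandas 2.3.3. For 100 kb bins in which 2 or more libraries had a peak, the arcsine of the square root of the covered fraction was fitted by limma 3.58.1 (R 4.3.3, trend), with all libraries of an assay in 1 fit, and Benjamini-Hochberg adjusted p under 0.05 counted as a call. The single Tet2KO library of 5mC entered that fit without a test. Its title gives it the number 2 and its list carries 1; the title was followed. The procedures were run on simulated data with planted changes. Most differences at the loci were smaller than those planted in bins, so that run does not show that they could be found. Named regions were those lost or gained (up to the 3 widest per locus and contrast), the widest in every library, the one with the highest score, the longest peak-free stretch, and the bin with the lowest p per locus and contrast, with others named where values called for them. A few bins were added after their values were seen. Alternatives were a minimum score of 100, equal numbers of top peaks, bins of 50 kb, a minimum mean fraction of 0.05, peaks up to 200 bp apart joined, a covered fraction of at least 0.5 per region, wider windows, a replicate block and leaving out each library. Positions count from 1.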

Additional observations from a re-analysis of the deposited data

Results flagged for a closer look

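The single Tet2KO library of 5mC takes part in no replicated comparison, and in 3 of the windows it lay above both WT libraries and both DKO libraries. It covered 7.39% of the Runx1 window, against 5.45% and 6.75% in WT. At Gata2 it covered 11.2%, against 8.92% and 8.37% in WT. At Lmo2 it covered 2.54%, against 1.10% and 1.64% in WT. With 1 library there is no spread and no test, and the values describe that library and not the genotype. Its list held 138122 peaks and 45.1 Mb, against 126995 and 140979 peaks and 44.7 and 44.1 Mb in WT.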

How the results depend on the processing

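Limits come first from the number of libraries and from unknown depth: 2 against 2 libraries cannot give an exact p below 0.333, and the width of peaks moves every coverage value. No bin of the 6 loci passed the adjusted threshold of limma under any alternative run. Genome-wide, with bins of a mean covered fraction of at least 0.05, 1 bin was called for Tet2KO against WT and 3 for DKO against Tet2KO, and with 1 library left out the counts were 0 to 1 for each of these (1 without Tet2KO replicate 1) and 0 for DKO against WT and for 5mC. Same-numbered libraries did not deviate together (correlations of -0.0142 to 0.0412 for 5hmC and -0.0562 for 5mC). The labels tie the number to no shared animal, batch or day, and these correlations do not measure a shift common to all bins. In each genotype of 5hmC, replicate 1 had fewer peaks and more covered length than replicate 2. With the replicate block 0 bins were called in every contrast.

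With a score of at least 100 the covered share of all windows differed by -1.57 points for Tet2KO against WT, and that setting left 5 lost and 3 gained 5hmC regions there, 2 lost for DKO against Tet2KO, and 1 lost and 2 gained 5mC regions. With peaks up to 200 bp apart joined, 5hmC regions numbered 6 lost and 4 gained for Tet2KO against WT, 5 lost and 7 gained for DKO against WT, and 3 lost and 2 gained for DKO against Tet2KO, and 1 region of 5mC was lost. With presence set at a covered fraction of 0.5 of the region, 8 were gained for DKO against Tet2KO, and with a fraction of 0.5 of the 5hmC region required on 5mC the share of 5hmC regions on 5mC was 3.50%. An equal number of top peaks gave 0.434 points for 5mC over all windows in DKO against WT, against 0.197.

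With 1 library left out, the difference over all windows was -3.11 to -1.86 points for Tet2KO against WT, -0.718 to 0.823 for DKO against WT, 1.77 to 3.31 for DKO against Tet2KO and 0.0502 to 0.344 for 5mC. Lost and gained 5hmC regions numbered 18 to 24 and 13 to 30 for Tet2KO against WT, 12 to 22 and 19 to 28 for DKO against WT, and 8 to 22 and 8 to 25 for DKO against Tet2KO, and those of 5mC 8 to 17 and 10 to 23. The share of 5hmC regions on 5mC was 13.7% to 17.1%.

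Some bins that passed no test changed sign, on the arcsine scale. With a score of at least 100, 5mC in DKO minus WT was -0.00167 at Myb, 0.0115 at Erg and 0.0132 at Gata2, and with equal numbers of top peaks -0.00239 at Myb and 0.00614 at Gata2. Leaving out 1 library gave -0.0292 to 0.000847 for 5hmC in DKO minus WT at Lmo2 (highest without DKO replicate 2) and -0.0178 to 0.113 for Tet2KO minus WT at Meis1 (lowest without WT replicate 1). For 5mC in DKO minus WT it gave -0.0268 to 0.0219 at Lmo2, -0.0107 to 0.00723 at Gata2, -0.00336 to 0.00968 at Myb and -0.0285 to 0.000807 at Meis1. For all alternatives listed here whose construction does not show it, the cause was not tested.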
